A study of Mus musculus with 90 samples.

Results

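The genes of excitation-contraction coupling and of the calcium store of skeletal muscle were followed through differentiation of myoblasts that lack MyoD. The 10 genes were Trdn, Ryr1, Cacna1s, Cacnb1, Cacng1, Atp2a1, Atp2a2, Casq1, Casq2 and Pvalb, and they were chosen by name, with every probe set annotated to the symbol of 1 of them alone. This gave 17 probe sets of the 36701 non-control probe sets measured, and 10 of the 15964 genes with such a probe set. Of the 17, 14 exceeded the median of their chip on at least 3 of 30 arrays. The other 3, 164693_r_at for Atp2a2, 168826_at for Casq1 and 96720_f_at for Pvalb, exceeded it on 0 of 30 arrays.

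All samples were primary mouse skeletal myoblasts of genotype MyoD-/-, which lack the myogenic transcription factor MyoD, and no sample of another genotype was analysed here. There were 3 cultures, called 1999, P6 and P10 in the sample titles, each taken at 10 times, which were 0h and then 6h, 12h, 18h and 24h, followed by 36h and 48h, and later by 3d, 4d and 7d, so each time is a group of 3 samples. The proliferation medium was Ham's F10 with FBS and bFGF on collagen-coated plates, and it was replaced by a differentiation medium of high-glucose DMEM and horse serum. Each of the 30 RNA samples was read on the Affymetrix chips MG_U74Av2, MG_U74Bv2 and MG_U74Cv2, and the values are linear MAS5 signals scaled per array. The labels used here do not say what the culture names stand for, whether the cultures came from different animals, or the animals' strain and age. P-values therefore measure only the spread among these samples, which may be technical. In the fits used here it is the spread left after the mean of each culture is taken out.

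Excitation-contraction coupling turns a depolarisation of the muscle membrane into release of calcium from the sarcoplasmic reticulum. In skeletal muscle the voltage sensor in the T tubule, a calcium channel of the dihydropyridine receptor type, acts on the ryanodine receptor in the facing store membrane, and this junction is called the triad. Pumps of the Atp2a family then return calcium to the store, where calsequestrins bind it, while parvalbumin binds calcium in the cytosol of fast fibres.

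The labelled cell type was checked with 9 markers of skeletal myoblasts and myotubes, of which 7 were higher at 7d than at 0h, and 3 without the culture block described below. Their summed signal lay between 6595 and 12467 at 0h and between 133320 and 419296 at 7d. Myf5, a myoblast factor, had a mean signal of 2271 ± 325 at 0h and 2325 ± 361 at 7d (SD, n = 3). Ckm, the muscle creatine kinase, read 1022 ± 290 at 0h and 797 ± 327 at 7d (SD, n = 3) and did not pass. Of the 6 cardiac markers 0 passed, and their summed signal stayed between 947 and 1969 at these times. The proliferation gene Mki67 read 1495, 3210 and 1461 in cultures 1999, P6 and P10 at 0h and 27, 31 and 35 at 18h. In bulk RNA a change in the share of cells that differentiated and a change in RNA per cell cannot be told apart.

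By 7d, 9 of the 10 genes were higher than at 0h and none was lower, and only Pvalb had no probe set that passed. In probe sets the count was 11 of 17, where 4.85% of all 36701 probe sets were higher at that time. The members were chosen with earlier results of these data known, so this comparison is a description. A probe set was counted as passing at an adjusted p under 0.05 in a limma fit of log2 signal on time, with culture as a block, and all adjusted p-values below come from such fits with Benjamini-Hochberg adjustment over all probe sets. Before taking log2, a constant equal to the 25th percentile of the signals on that chip was added, so a fold change given here is on the log2(signal + constant) scale and understates the change of dim transcripts. The median log2 fold change of the 10 genes at 7d was 2.98, against -0.05 over all probe sets. Without the culture block, 5 of the 17 probe sets passed at 7d, those of Trdn (both), Ryr1, Casq1 and Atp2a1 (1 of 2), where 2.38% of all probe sets did. With culture as a block and any 1 culture left out, 9 of the 11 probe sets still passed.

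**Figure D1:**
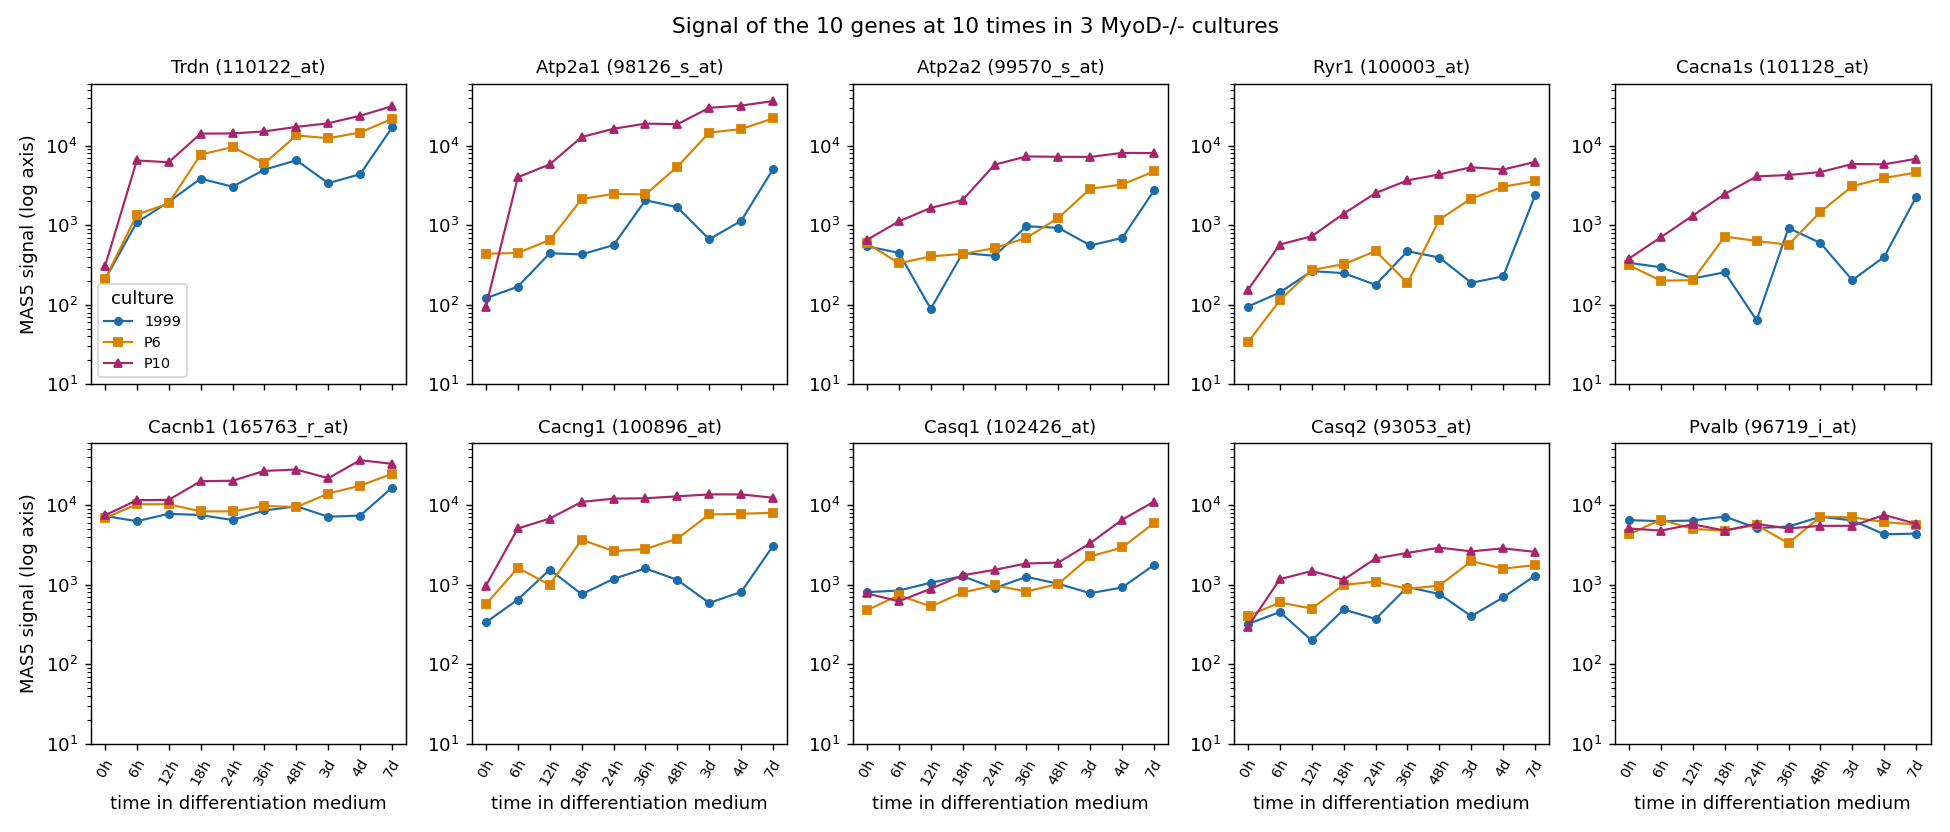
MAS5 signal (log axis) of the 10 genes, 1 probe set each, at the 10 times, with a line and symbol for each of the 3 cultures. In Trdn the signals rose from 208, 208 and 303 at 0h to between 16903 and 31194 at 7d, while those of Pvalb stayed between 3315 and 7505.

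Promoter windows from 250 bases before to 50 after the transcription start were matched by symbol in RefSeq tables of build GRCm38.p6, which held 7 of the 10 genes and none for Trdn, Atp2a2 and Cacng1. The windows shown are those of members with a match to any of 5 motifs searched on both strands, to set the members that rose beside Pvalb. They are Cacna1s at chr1:136052561-136052860 (plus strand), Atp2a1 at chr7:126463024-126463323 (minus strand), Casq1 at chr1:172219846-172220145 (minus strand), Casq2 at chr3:102086165-102086464 (plus strand) and 1 of 2 windows of Pvalb at chr15:78206351-78206650 (minus strand). Each is written 5' to 3' along the gene, and capitals mark the matches.
Cacna1s: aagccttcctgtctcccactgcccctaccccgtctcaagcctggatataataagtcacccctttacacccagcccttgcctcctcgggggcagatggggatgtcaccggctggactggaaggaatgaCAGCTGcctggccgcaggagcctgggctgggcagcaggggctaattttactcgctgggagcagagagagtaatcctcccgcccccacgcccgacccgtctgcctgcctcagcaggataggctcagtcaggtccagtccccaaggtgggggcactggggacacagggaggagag
Atp2a1: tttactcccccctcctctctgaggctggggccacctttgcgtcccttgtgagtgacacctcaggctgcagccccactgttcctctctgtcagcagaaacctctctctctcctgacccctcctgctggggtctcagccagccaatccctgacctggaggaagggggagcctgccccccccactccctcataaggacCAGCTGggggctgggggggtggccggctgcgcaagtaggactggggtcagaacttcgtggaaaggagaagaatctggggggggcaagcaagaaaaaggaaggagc
Casq1: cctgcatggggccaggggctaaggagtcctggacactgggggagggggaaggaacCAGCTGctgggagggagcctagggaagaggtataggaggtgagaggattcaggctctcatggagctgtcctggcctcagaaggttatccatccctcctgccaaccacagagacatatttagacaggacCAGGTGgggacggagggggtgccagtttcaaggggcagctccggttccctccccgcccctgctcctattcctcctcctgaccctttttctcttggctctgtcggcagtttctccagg
Casq2: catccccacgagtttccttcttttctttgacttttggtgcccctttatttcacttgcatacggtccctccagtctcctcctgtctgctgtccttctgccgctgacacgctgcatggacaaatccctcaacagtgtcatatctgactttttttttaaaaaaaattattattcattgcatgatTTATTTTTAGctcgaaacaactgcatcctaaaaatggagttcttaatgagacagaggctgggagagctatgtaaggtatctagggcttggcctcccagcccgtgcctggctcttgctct
Pvalb: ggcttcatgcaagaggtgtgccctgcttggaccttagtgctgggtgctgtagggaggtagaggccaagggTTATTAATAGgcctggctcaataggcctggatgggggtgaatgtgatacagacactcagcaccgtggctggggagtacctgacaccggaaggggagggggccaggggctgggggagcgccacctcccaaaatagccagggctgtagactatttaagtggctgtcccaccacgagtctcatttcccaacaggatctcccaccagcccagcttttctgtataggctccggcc

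The E-box CAGCTG, a site type bound by myogenic factors and other helix-loop-helix proteins, was found in the windows of Cacna1s, Atp2a1 and Casq1 and in 16.3% of all 32851 promoter windows. In the Cacna1s window it lay at positions -123 to -118 from the start, in that of Atp2a1 at -55 to -50 and in that of Casq1 at -195 to -190. The E-box CACCTG was found in the Casq1 window at -67 to -62, on the opposite strand, and in 20.2% of all windows. The MEF2 consensus was found in the windows of Casq2, at -69 to -60, and of Pvalb, at -180 to -171, and in 3.19% of all windows. TATAAA and the SRF CArG box matched in none of the 9 windows of the 7 genes, and in 13.6% and 1.63% of all windows. The Ryr1 window and both Cacnb1 windows held none of the 5 motifs. A match describes the letters of a window and is not evidence of binding, and the MEF2 consensus was present both in Casq2, which rose, and in Pvalb, which did not pass at any time.

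Trdn encodes triadin, a protein of the store membrane that holds calsequestrin close to the ryanodine receptor. Its signal on MG_U74Bv2 (110122_at) was 208, 208 and 303 at 0h in cultures 1999, P6 and P10. At 6h it was 1083, 1354 and 6497, at 18h 3842, 7716 and 14138, and at 7d 16903, 21704 and 31194. The 0h and 6h samples did not overlap, and P10 was the highest culture at every time. The change at 6h was 2.28 ± 0.36 on the log2 scale (SE, n = 3 per time, adjusted p = 0.0036), and at 7d it was 5.49 ± 0.36, or 44.9-fold (adjusted p = 1.9e-09). A Trdn probe set on MG_U74Cv2 (140519_at) read 56, 82 and 108 at 0h and 18455, 19469 and 34342 at 7d, a log2 change of 6.31 ± 0.55 (SE, adjusted p = 1.1e-07). Both Trdn probe sets passed at all 9 later times, and Trdn was the only member that passed at 6h or at 12h, where 0.354% and 1.02% of all probe sets were higher (0.0654% and 0.297% without the culture block, when no member passed).

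The early Trdn calls were the least firm for this gene. In the fit without the culture block the adjusted p of 110122_at was 0.33 at 6h and 0.087 at 12h, and 0.0016 at 18h. With scan session as the block it was 0.0034 at 6h for 110122_at and 0.055 for 140519_at. Scan sessions largely followed cultures, so that block also takes out much of the difference between cultures. At 6h, 110122_at passed without 1999 and without P6, but without P10 its log2 change was 1.63 (adjusted p = 0.36), and 140519_at passed in none of these 3 fits. At 18h and later both passed in each of these fits.

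Ryr1, the calcium release channel of the skeletal store, had signals (100003_at) of 95, 34 and 154 at 0h in cultures 1999, P6 and P10. At 48h they were 392, 1179 and 4340 and at 7d 2373, 3574 and 6227. All 7d samples lay above all 0h samples, and at 4d culture 1999 still read 228 where P6 and P10 read 3044 and 5004. The log2 change was 2.78 ± 0.63 at 48h (SE, adjusted p = 0.0071), the earliest time at which Ryr1 passed, and 4.22 ± 0.63 at 7d (18.6-fold, adjusted p = 8.9e-05). The adjusted p without the culture block was 0.2 at 48h and 0.021 at 7d. At 48h the call was lost without P6 (adjusted p = 0.098) and without P10 (log2 change 2.16, adjusted p = 0.23), and without 1999 the change was 3.55.

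Cacna1s, the pore-forming and voltage-sensing subunit of the skeletal channel, had signals (101128_at) of 337, 314 and 381 at 0h. In P10 they were 1319 at 12h, 4101 at 24h and 6813 at 7d. In P6 they were 633 at 24h, 3089 at 3d and 4602 at 7d, and in 1999 they were 64 at 24h, 204 at 3d and 2261 at 7d. The 3 cultures thus lay close together at 0h and apart at 24h, and every 7d sample was above every 0h sample. The log2 change passed at 4d (2.33 ± 0.65, SE, adjusted p = 0.031) and at 7d (3.21 ± 0.65, adjusted p = 0.0019). At 7d the adjusted p was 0.11 without the culture block, and with scan session as the block the change was 2.07 (adjusted p = 0.14). Without culture P6 or P10 the adjusted p at 7d was 0.054 and 0.079.

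Cacng1, the gamma subunit of the skeletal channel, passed from 18h on. Its signals (100896_at) were 337, 567 and 971 at 0h in cultures 1999, P6 and P10, 758, 3664 and 10955 at 18h, and 3076, 8008 and 12347 at 7d. The 0h and 18h samples overlapped, since 1999 at 18h was below P10 at 0h, and the 0h and 7d samples did not. The log2 change was 2.25 ± 0.52 at 18h (SE, adjusted p = 0.0093) and 3.3 ± 0.52 at 7d (9.82-fold, adjusted p = 0.00014). Fitted without the culture block, it had an adjusted p of 0.47 at 18h and 0.13 at 7d, and at 18h it did not pass without P6 (adjusted p = 0.087) or without P10 (log2 change 1.7, adjusted p = 0.34).

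Cacnb1, the cytoplasmic beta subunit, was already at 7297, 6835 and 7428 at 0h on MG_U74Cv2 (165763_r_at). At 7d it read 16518, 24662 and 32962, so the samples of these times did not overlap. Its log2 change at 7d, 1.7 ± 0.32 (SE, 3.24-fold, adjusted p = 0.00091), was the smallest among the 9 genes that passed. It also passed at 4d (1.2 ± 0.32, adjusted p = 0.021), where culture 1999 read 7365 and overlapped the 0h samples. At 7d the adjusted p was 0.083 without the culture block. The r in the name of this probe set marks an Affymetrix design with relaxed rules, s and f mark probes shared with related transcripts, and i marks an incomplete set.

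Atp2a1, the calcium pump of fast skeletal fibres, passed from 18h on with 98126_s_at and from 36h on with 162223_f_at. Its signals (98126_s_at) were 121, 438 and 95 at 0h in cultures 1999, P6 and P10. At 18h they were 430, 2131 and 12811, and at 7d 5073, 21979 and 36248. P6 was highest at 0h and P10 at every later time, and the 0h and 7d samples did not overlap. The log2 change was 3.04 ± 0.74 at 18h (SE, adjusted p = 0.015) and 5.71 ± 0.74 at 7d (52.5-fold, adjusted p = 1.7e-05). Without the culture block the adjusted p was 0.42 at 18h and 0.026 at 7d. At 18h it did not pass without P6 (adjusted p = 0.073) or without P10 (log2 change 1.6, adjusted p = 0.44). The other Atp2a1 probe set, 162223_f_at, read 17, 40 and 23 at 0h and 1531, 8001 and 12008 at 7d, a log2 change of 5.22 ± 0.83 (SE, adjusted p = 0.00018, and 0.057 without the culture block). It did not pass at 18h (limma adjusted p = 0.078) or at 24h (0.055).

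Atp2a2, the pump known from slow and cardiac muscle and, as another isoform, from most cells, had signals (99570_s_at) of 543, 594 and 654 at 0h. At 24h they were 413, 515 and 5758 in cultures 1999, P6 and P10, with P10 alone above the 0h samples, and at 7d they were 2737, 4742 and 8049. The 7d samples were all above the 0h samples. The log2 change passed at 4d (1.98 ± 0.54, SE, adjusted p = 0.027) and at 7d (2.76 ± 0.54, 6.77-fold, adjusted p = 0.0014), and the adjusted p at 7d was 0.16 without the culture block. With scan session as the block it was 0.45 at 4d and 0.03 at 7d. The other Atp2a2 probe set, 164693_r_at, stayed between 19 and 284 and passed at none of the 9 times.

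Casq1, the calcium-binding calsequestrin of the skeletal store, passed at 4d and 7d only. Its signals (102426_at) were 805, 478 and 775 at 0h in cultures 1999, P6 and P10, 1024, 1024 and 1894 at 48h, 923, 2929 and 6538 at 4d, and 1769, 5953 and 11059 at 7d. The 7d samples lay above the 0h samples in all 3 cultures, and culture 1999 changed by 1.03 where P6 and P10 changed by 3.34 and 3.64 on the log2 scale. The fitted change was 1.81 ± 0.48 at 4d (SE, adjusted p = 0.022) and 2.67 ± 0.48 at 7d (6.38-fold, adjusted p = 0.00059). Without the culture block the adjusted p was 0.093 at 4d and 0.0055 at 7d, and at 7d it was 0.078 without P6 and 0.068 without P10. The other Casq1 probe sets disagreed with this one. On MG_U74Cv2, 171138_i_at read 8189, 6930 and 14427 at 0h and 7670, 9329 and 12799 at 7d, and 168826_at stayed between 47 and 345, and neither passed at any time.

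Casq2, the calsequestrin of cardiac and slow muscle, had signals (93053_at) of 321, 404 and 298 at 0h and 371, 1090 and 2134 at 24h. At 7d they were 1297, 1762 and 2574. The samples of 0h and 24h overlapped in culture 1999, and those of 0h and 7d did not. Casq2 passed at 24h with a log2 change of 1.26 ± 0.36 (SE, adjusted p = 0.041), and at 7d with 2.07 ± 0.36 (4.2-fold, adjusted p = 0.00042). Its adjusted p without the culture block was 0.48 at 24h and 0.074 at 7d. At 24h it did not pass without P6 (adjusted p = 0.24) or without P10 (log2 change 0.68, adjusted p = 0.58). With scan session as the block it was 0.15 at 24h and 0.085 at 7d.

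Pvalb, the cytosolic calcium buffer of fast fibres, did not pass at any time on any of its 3 probe sets. On 96719_i_at the signals were 6463, 4269 and 5074 at 0h and 4380, 5683 and 5810 at 7d, and these samples overlapped. The log2 change at 7d was 0.02 ± 0.22 (SE, adjusted p = 0.99), and over the 9 later times it ranged from -0.21 to 0.32. On 168316_i_at the signals ran from 10741 to 19886 over all 30 arrays, with log2 changes from -0.41 to 0. On 96720_f_at they ran from 10 to 242, and the changes ran from -0.46 to 0.2. Of these, 96719_i_at and 168316_i_at exceeded their chip median on all 30 arrays, and what RNA gave that signal at 0h was not tested.

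**Figure D2:**
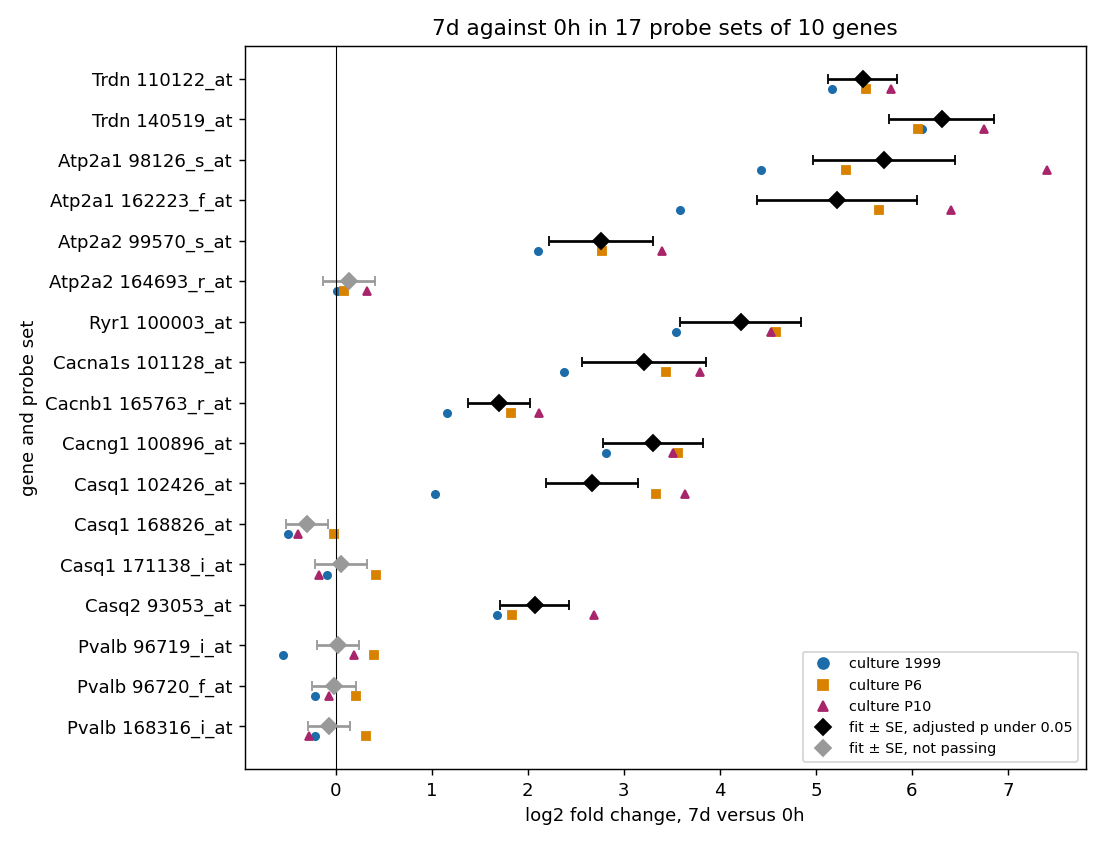
Log2 fold change from 0h to 7d for the 17 probe sets, with the limma estimate ± SE as diamonds (black when the adjusted p was under 0.05, grey otherwise) and the change within each culture as coloured symbols below. The 11 passing probe sets ran from 1.7 for Cacnb1 to 6.31 for Trdn, and in each of them all 3 cultures moved up. They were picked by this same change, so the shared direction is no separate support.

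The genes did not pass at the same times. Trdn passed from 6h, Atp2a1 and Cacng1 from 18h, Casq2 from 24h, Ryr1 from 48h, and Atp2a2, Cacna1s, Cacnb1 and Casq1 from 4d. For Atp2a1 this was 98126_s_at, and 162223_f_at passed from 36h. In genes this was 1 of 10 at 6h and 12h, 3 at 18h, 4 at 24h and 36h, 5 at 48h and 3d, and 9 at 4d and 7d. In probe sets higher it was 4 of 17 at 18h, 5 at 24h, 6 at 36h, 7 at 48h and 3d, and 11 at 4d, and none was lower at any time. Over all probe sets 2.53% were higher at 18h, 2.63% at 24h, 2.6% at 36h, 3.42% at 48h, 3.21% at 3d and 3.55% at 4d. Without the culture block 2 of 17, both of Trdn, passed at each time from 18h to 4d, where 1.13% of all probe sets did at 18h and at 24h, 1.08% at 36h, 1.49% at 48h, 1.23% at 3d and 1.48% at 4d. At 4d the calls of Ryr1, Casq2, Atp2a2, Cacna1s, Cacnb1 and Casq1 were lost without P6 (limma adjusted p from 0.058 to 0.31). They were also lost without P10 (from 0.14 to 0.42), as were those of Cacng1 (0.16) and of 162223_f_at for Atp2a1 (0.18). With any 1 culture left out, 3 of the 11 calls at 4d held, both of Trdn and the other one of Atp2a1. The order of passing depends on the spread of each gene as well as on its change, and differences between genes in time of passing were not tested.

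In the joint test over the 10 times 11 of 17 probe sets passed, against 5.3% of all probe sets, and without the culture block 2 passed, against 2.19%. Of the steps between neighbouring times, 6h against 0h was the only one at which a member passed, with both Trdn probe sets. At the other 8 steps 0 of 17 passed in limma, where 0.0872% of all probe sets passed from 12h to 18h, 0.00545% at each of the steps from 6h to 12h, 18h to 24h and 48h to 3d, and 0% at the other 4. The members with an unadjusted p under 0.05 were 2 of 17 from 12h to 18h, 1 from 36h to 48h and 1 from 4d to 7d, where 6.49%, 4.53% and 4.15% of all probe sets were under it, and 0 of 17 at the other 5 steps.

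The 3 cultures ranked alike for most of these genes. P10 had the highest signal at all 9 later times for 8 of the 10 genes, all but Casq1 (7 of 9) and Pvalb (3 of 9). Other probe sets differed, with 9 of 9 for 171138_i_at and 0 for 168826_at of Casq1, and 2 for 164693_r_at of Atp2a2. Whether this ranking is particular to the members was not tested. Culture 1999 had the lowest signal at 9 of 9 later times for Atp2a1, and at 8 for Trdn, Cacnb1, Cacng1 and Casq2. Onset was read in each culture as the time from which the log2 signal stayed above the midpoint of its own range. For Atp2a1 (98126_s_at) it was 6h in P10, 48h in P6 and 4d in 1999 (7d in 1999 by 162223_f_at), and for Ryr1 and Cacna1s it was 18h, 48h and 7d. For Trdn (110122_at) it was 6h in P10 and 18h in the other cultures (36h in 1999 by 140519_at), and for Casq1 it was 3d in P10 and P6 and 7d in 1999. These onsets are descriptions of single cultures and carry no test.

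Member signals did not increase at every step in any culture. In P6 Trdn (110122_at) read 9567 at 24h and 5991 at 36h, and in P10 Cacnb1 read 27915 at 48h and 21737 at 3d. Culture 1999 had an Atp2a1 signal of 2062 at 36h, 1681 at 48h, 666 at 3d, 1135 at 4d and 5073 at 7d. Its Trdn signal likewise read 6545 at 48h, 3370 at 3d and 16903 at 7d, and its Cacna1s signal 597, 204 and 2261. Myog, the myogenin gene that drives differentiation, was 2767 at 48h, 1144 at 3d and 11798 at 7d in the same RNA, and Acta1, skeletal actin, was 22427, 2393 and 56165. In P10, Myog was already at 19456 at 6h, against 681 in 1999 and 2389 in P6. The member signals and these markers of differentiation thus moved with the culture, and their part in the spread between cultures was not tested.

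Cultures were compared in their change from an early phase of 0h, 6h and 12h to a late phase of 3d, 4d and 7d, with times within a phase serving as repeats of a culture, which are not independent cultures. For Casq1 (102426_at) it was 0.25 ± 0.39 in 1999, 2.35 ± 0.39 in P6 and 2.86 ± 0.39 in P10 (log2, SE). For Cacna1s it was 0.89 ± 0.52, 3.47 ± 0.52 and 2.9 ± 0.52, and for Ryr1 1.21 ± 0.63, 3.63 ± 0.63 and 3.37 ± 0.63. For Trdn it was 2.55 ± 0.84, 3.76 ± 0.84 and 3.06 ± 0.84, so its errors overlapped between cultures. In the limma interaction test 0 of 17 probe sets passed, where 0.856% of all probe sets did, and 5 of 17 had an unadjusted p under 0.05, where 15.4% of all probe sets did. Casq1 (102426_at) was nearest with an adjusted p of 0.059, followed by Cacna1s with 0.15. The other Casq1 probe sets had 0.42 (171138_i_at) and 0.98 (168826_at).

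**Figure D3:**
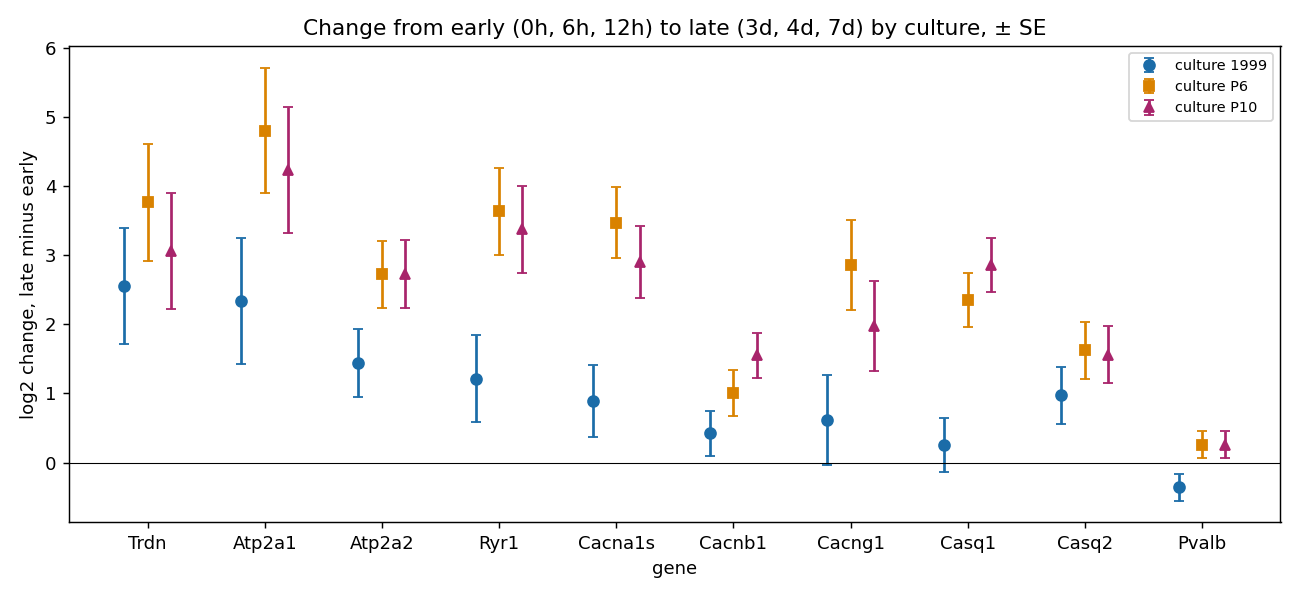
Change in log2 signal from the early to the late times in each culture for the 10 genes, as estimates ± SE from the limma interaction fit of 18 arrays per chip. Culture 1999 has the lowest point for all 10 genes, from 2.55 for Trdn to -0.36 for Pvalb, and the interaction passed the threshold for none of them.

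The arrays were scanned in several sessions, and within every culture the 7d and 0h arrays fell in different ones. Within sessions that hold several times of a culture, Trdn (110122_at) changed by 5.39 from 0h to 4d in P10, by 4.84 from 0h to 48h in P6 and by 2.93 from 0h to 3d in 1999, on the log2 scale. Atp2a1 (98126_s_at) changed by 4.26 from 0h to 6h in P10, by 3.31 from 0h to 48h in P6 and by 1.7 from 0h to 3d in 1999. Over the same sessions Cacna1s changed by 0.72 from 0h to 6h in P10, by 1.87 from 0h to 48h in P6 and by -0.49 from 0h to 3d in 1999, and Casq1 (102426_at) by -0.28, 0.94 and -0.04. In the later sessions, Cacna1s changed by 2.05 from 12h to 4d in P10, by 0.56 from 3d to 7d in P6 and by 2.19 from 4d to 7d in 1999. Casq1 changed by 2.72, 1.35 and 0.86 over these spans, Atp2a1 by 2.43, 0.59 and 2.05, and Trdn by 0.8 in P6 and 1.89 in 1999. Each of these within-session values has 1 array at either end and no test.

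Over the 30 samples the 9 rising genes followed each other, with Pearson r from 0.69 (Cacng1 and Casq1) to 0.96 (Ryr1 and Cacna1s, Atp2a2 and Cacna1s). Pvalb had r between 0.02 and 0.29 with the others. The samples share cultures and times, so these are descriptions. Among other genes, the mean profile of the members was most like those of Cav3 (r = 0.984), Myh7 (0.978), Mb (0.978), Mybpc1 (0.976) and Pdlim3 (0.974). Cav3 is the muscle caveolin, Myh7 the slow myosin heavy chain, Mb myoglobin, Mybpc1 slow myosin-binding protein C and Pdlim3 a Z-disc protein. For single members, Srl, the store protein sarcalumenin, was the nearest to Cacna1s (r = 0.988), Myh8 the nearest to Ryr1 (0.978) and Atp2a2 (0.974), and Mybph to Atp2a1 (0.978) and Casq2 (0.959). Sgca was nearest to Trdn (0.96), Hes6 to Cacng1 (0.963), Gys1 to Cacnb1 (0.969) and Myl2 to Casq1 (0.926). The nearest to Pvalb was Uchl1, with r of 0.642.

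Further genes of calcium handling were described by lists at 7d against 0h, beside the 9.74% of all probe sets that passed in either direction and the 4.85% that were higher. The lists, too, were chosen with earlier results of these data known. Among partners of the triad and release channel 7 of 16 measured genes were higher and none lower, and without the culture block 3 were, Tmem38a, Jph2 and Jsrp1. Tmem38a, a potassium channel of the store membrane, rose from 1886 ± 641 to 40218 ± 17766 (SD, n = 3), a log2 change of 4.17 ± 0.51 (SE, adjusted p = 7.3e-06). Jph2, a junctophilin that ties the T tubule to the store, changed by 3.64 ± 0.46 (adjusted p = 9.6e-06). Srl changed by 3.2 ± 0.63 (adjusted p = 0.0013, and 0.091 without the block) and Jsrp1, a junctional store protein, by 2.79 ± 0.37 (adjusted p = 1.5e-05). The other ryanodine receptor genes did not pass. Ryr2 had mean signals of 53 ± 35 at 0h and 78 ± 66 at 7d (SD, n = 3), and Ryr3 of 551 ± 24 and 544 ± 46.

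Of the other calcium channel subunits 1 of 9 measured was higher, and 0 without the culture block. It was Cacna2d1, the alpha2delta subunit that pairs with Cacna1s in muscle, with a log2 change of 1.63 ± 0.36 (SE, adjusted p = 0.0045, and 0.19 without the culture block). Cacna1c, the cardiac and smooth muscle pore subunit, read 598 ± 120 at 0h and 465 ± 83 at 7d (SD, n = 3) and did not pass. Among pump regulators, pumps and exchangers 1 of 10 was higher, the sodium-calcium exchanger gene Slc8a1 (1.07 ± 0.31, adjusted p = 0.03, and 0.17 without the block). The pump inhibitors Sln and Pln did not pass, with mean signals of 252 ± 129 and 316 ± 238 at 0h and 237 ± 54 and 726 ± 400 at 7d (SD, n = 3).

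Among genes of store entry, inositol trisphosphate receptors and general store chaperones, 3 of 13 measured were higher and 1 was lower, and without the culture block 1 and 0 were. Stim1, the store calcium sensor, changed by 2.49 ± 0.32 (SE, adjusted p = 1.6e-05, and 0.065 without the culture block), Nucb2 by 0.92 ± 0.22 (adjusted p = 0.0062) and Nucb1 by 0.73 ± 0.18 (adjusted p = 0.0087, and 0.055 without the block). Itpr3, an inositol trisphosphate receptor, fell by 0.93 on the log2 scale (SE 0.19, adjusted p = 0.0016, and 0.084 without the block). The chaperone gene Hspa5 read 16000 ± 2996 at 0h and 16112 ± 1575 at 7d (SD, n = 3).

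Among T tubule and membrane excitation genes 5 of 11 measured were higher and none lower, and without the culture block 2 were. Cav3 changed by 4.47 ± 0.79 (SE, adjusted p = 0.00054, and 0.055 without the culture block), Bin1, which shapes the T tubule membrane, by 1.95 ± 0.25 (adjusted p = 1.3e-05), Dysf by 1.62 ± 0.36 (adjusted p = 0.0042) and Ank1 by 1.44 ± 0.3 (adjusted p = 0.0025, and 0.26 without the block). The muscle chloride channel gene Clcn1 did not pass, with 233 ± 67 at 0h and 208 ± 64 at 7d (SD, n = 3). Among calcium sensors and their targets 4 of 9 were higher and none lower, and without the block 2 were. They were the calmodulin kinase genes Camk2b (2.73 ± 0.46, adjusted p = 0.00036) and Camk2a (1.76 ± 0.34, adjusted p = 0.0011), and the calcineurin genes Ppp3ca (1.05 ± 0.21, adjusted p = 0.0019, and 0.057 without the block) and Ppp3cb (0.76 ± 0.23, adjusted p = 0.033, and 0.065 without it).

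**Figure D4:**
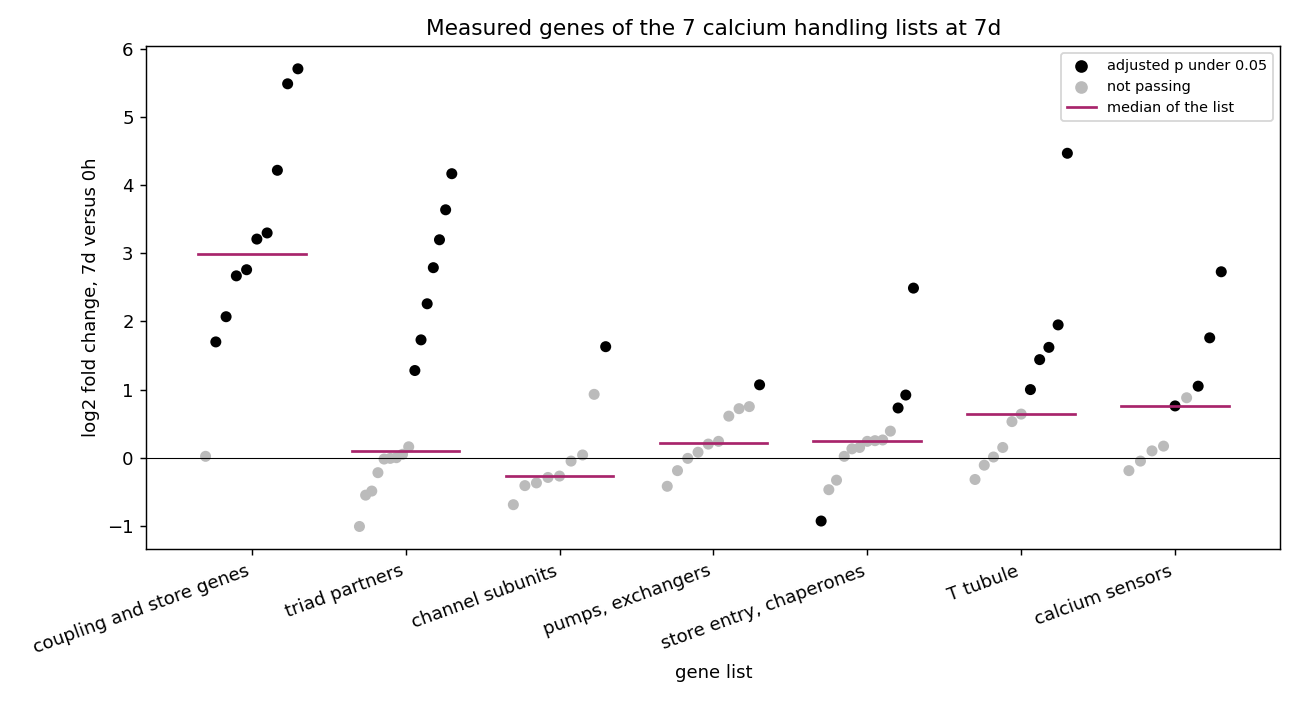
Log2 fold change from 0h to 7d of every measured gene of the 10 coupling and store genes and of 6 lists of other calcium handling genes, 1 probe set per gene, black when the adjusted p was under 0.05, with a line at each list's median. The medians were 2.98 for the coupling and store genes, 0.11 for triad partners, -0.27 for channel subunits, 0.22 for pumps and exchangers, 0.24 for store entry and chaperones, 0.64 for the T tubule and 0.76 for calcium sensors.

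Markers of other cell types also moved over the course. Of 9 fibroblast markers 3 were higher at 7d, Ogn by 4.43, Dcn by 3.1 and Col3a1 by 1.92 on the log2 scale, and the summed signal of the list was 13520 to 95121 at 0h and 47414 to 107204 at 7d. Within that sum Col1a2, which did not pass, differed widely between cultures at both times. It read 17911 ± 30889 at 0h and 16576 ± 28516 at 7d (SD, n = 3). Of 6 smooth muscle markers only Acta2 was higher, by 2.31, with a summed signal of 6866 to 23886 at 0h and 35605 to 50754 at 7d, while Myh11 stayed at mean signals of 17 and 20. Among cardiac markers, Myh6 had mean signals of 40 and 62, Nkx2-5 of 100 and 86 and Nppa of 937 and 855 at these times. None of the 6 cardiac markers passed. Of the leukocyte markers 0 of 5 passed, with a summed signal of 560 to 1145 over both times, of the endothelial markers Kdr was lower and of the adipocyte markers Pparg was lower. The part of other cells in the member signals was not tested.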

How the data were processed

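RNA of 30 samples was measured on 3 chips, 90 arrays in all. The deposited values are linear intensity, the MAS5 signal of each probe set, made by the authors from biotinylated cRNA per the labels' protocols and the submitters' processing notes. The version of MAS5 and the target of its scaling are not given in the sources used here. Mean signal per array lay between 2174 and 2532 on MG_U74Av2, 1946 and 2142 on MG_U74Bv2 and 2442 and 3009 on MG_U74Cv2. Detection calls and probe-level data were not used, so no probe set is called absent, and precision is limited by 3 arrays per time.

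Each chip's 66 control probe sets were excluded. The log2 transform used the signal plus a constant per chip, the 25th percentile of its signals (119.8, 270.1 and 213.0). All 36701 remaining probe sets were fitted per chip over 30 arrays with limma 3.58.1 in R 4.3.3, with time and culture as terms, and two-sided p-values were corrected with the Benjamini-Hochberg procedure across all probe sets of the 3 chips. No filter on low values was applied. Titles and instrument records name the same culture at every time, which pairs the samples. The median correlation of deviations from the time means was 0.34, 0.189 and 0.076 on the 3 chips within a culture and -0.151, -0.072 and -0.031 between cultures. The negative values between cultures follow from taking out the time means and do not bear on the pairing. Correlations within a culture exceeded 0.1 in 117, 97 and 55 of 135 pairs of arrays on the 3 chips. Errors of log2 changes are standard errors of the fit, and errors of mean signals are standard deviations.

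A gene was represented by 1 probe set, from MG_U74Av2 before MG_U74Bv2 before MG_U74Cv2, without a suffix mark before with one, then by mean signal. Named genes were all members, the genes with the most similar profiles, up to 4 risen and 4 fallen genes per list, and Myog, Acta1 and Mki67. Apart from Col1a2, given for its spread, those given with values though they did not pass were chosen for their known role after their values were seen. Members and lists were chosen with earlier results of these data known. The fits were also run on simulated arrays with independent errors. Those arrays do not cover deviations of a culture that change over time.

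Alternatives were the fit without the culture block, scan session as the block, other added constants (10th percentile and median), a filter on low values, quantile normalization, a variance trend, the arrays of the compared times alone, and each culture left out. Fits that dropped culture P6 at 6h and 12h, times for which the labels give the same RNA concentration, or culture 1999 at 36h and 48h were added after seeing the data. On MG_U74Cv2, 6 arrays of P10 have no recorded scan session, and they formed a level of their own in the session block. Most sessions with several times were of a single culture, so that block is not free of culture.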

Additional observations from a re-analysis of the deposited data

Results flagged for a closer look

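Casq1 (102426_at) was the member whose change from early to late times differed most clearly between 2 cultures. P10 exceeded 1999 by 2.61 ± 0.56 on the log2 scale (SE, adjusted p = 0.041 in the limma interaction fit), from changes of 2.86 in P10 and 0.25 in 1999. P6 exceeded 1999 by 2.1 ± 0.56 (adjusted p = 0.089). The other Casq1 probe sets did not show this. P10 minus 1999 was 0.71 ± 0.34 for 171138_i_at (limma adjusted p = 0.39) and -0.08 ± 0.39 for 168826_at (0.96). The test over all 3 cultures gave an adjusted p of 0.059, the comparison of pairs was not among those planned, and times stand in for repeats of a culture here.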

How the results depend on the processing

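The calls at 7d were the firmest. Leaving out 1 culture gave between 9 and 11 of 17 probe sets at 7d, with Cacna1s and Casq1 the genes that lost a call. The counts ran from 0 to 1 at 6h, 0 to 2 at 12h, 2 to 5 at 18h, 2 to 7 at 24h and 36h, 2 to 9 at 48h, 2 to 10 at 3d and 3 to 11 at 4d, 2 to 10 in the joint test, 0 to 1 over neighbouring times and 0 to 0 in the interaction test. The lowest count from 24h to 4d came without P10, and the lowest at 18h, at 7d and in the joint test came both without P6 and without P10. Shares over all probe sets are given here only for the main fit and the fit without the culture block. Whether a lower count in any other fit is particular to the members was therefore not tested.

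Without the replicate block the counts were 0 at 6h and 12h, 2 at each time from 18h to 4d, 5 at 7d, 2 in the joint test and 0 over neighbouring times. With scan session as the block, in place of culture, they fell to 1 at 6h, 4 at 24h and 3d, 5 at 4d and 9 at 7d. They also fell to 6 in the joint test and 1 over neighbouring times. Sessions largely followed the cultures, so this fit still takes out much of the difference between cultures. The calls lost at 7d in this limma fit were those of Cacna1s (adjusted p = 0.14) and Casq2 (0.085). With only the 6 arrays of the compared times the counts were 0 at 6h and 12h, 1 at 18h and 24h, 2 at 36h and 48h, 1 at 3d, 0 at 4d and 9 at 7d, in fits with few residual degrees of freedom. With the median as the added constant 1 passed at 6h, 1 at 12h and 1 over neighbouring times. With the filter on low values, and with a variance trend, 1 probe set, that of Casq1, passed in the interaction test.

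In 14 cases the direction of a change turned, each for a change that did not pass, and none passed in the new direction. For Atp2a2 (99570_s_at), leaving out 1 culture gave log2 changes from -0.44 to 0.23 at 6h, with 0.01 without 1999, from -1.05 to 0.38 at 12h, from -0.29 to 0.64 at 18h and from -0.24 to 1.38 at 24h. Its change was 0.04 at 6h with P6 dropped at 6h and 12h only, and -0.38 at 18h with session as the block. For Cacna1s the range was -0.28 to 0.29 at 6h, -0.44 to 0.55 at 12h and -0.26 to 1.94 at 24h, and with session as the block the change at 12h was -0.46. For Casq1 (102426_at) it was -0.11 to 0.29 at 6h, with -0.06 at 12h under the session block, and for Casq2 -0.11 to 1.09 at 12h. The lowest of these came without P10, except that of Casq1, which came without P6. The causes were not tested.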
